A study of Homo sapiens with 11 samples.

Results

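The 5 mature miRNAs described here are both arms of miR-9 (hsa-miR-9-5p and hsa-miR-9-3p), both arms of miR-124 (hsa-miR-124-3p and hsa-miR-124-5p) and hsa-miR-128-3p. They were chosen by name as neurogenic miRNAs and are 5 of 2576 mature miRNAs listed in the count tables, of which 1641 had a count in any library. All 5 had counts in at least 1 library, and 3 of the 5 passed the low-count filter in each experiment.

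A miRNA is a short RNA cut from a hairpin precursor and loaded into an Argonaute protein, where bases 2 to 8, the seed, pair with target mRNAs and repress them. miR-124 is the classical neuron-specific miRNA and represses many non-neuronal transcripts, as well as the splicing repressor PTBP1 and the phosphatase CTDSP1. miR-9 is made in neural progenitors and neurons, and its arms act on both sides of one regulatory loop, miR-9-5p on the transcriptional repressor REST and miR-9-3p on its co-repressor RCOR1. miR-128 is a brain-enriched miRNA that acts in neuronal migration, excitability and dendrite growth.

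Small RNA was sequenced from SH-SY5Y, a human neuroblastoma cell line subcloned from SK-N-SH that takes on a neuron-like form with all-trans retinoic acid (ATRA). Every group, controls included, received ATRA at 10 µM over 7 days of differentiation. In co-treatment, 10 µM H2O2 was present during those 7 days (3 H2O2 and 3 control libraries). In pre-treatment, 10 µM H2O2 was given for 3 days and removed before ATRA (3 H2O2 and 2 control libraries). Controls received no H2O2. The libraries are described as biological replicates of a single cell line, and whether each came from a separate culture is not stated further, so p-values measure the spread between these libraries. No undifferentiated cells were analysed here, so the values compare H2O2 with control after differentiation and say nothing of a change during it.

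The mature sequences show which of these RNAs could share targets and which reads could be told apart. They are from RefSeq (GRCh38.p14), are written 5′ to 3′ and have the seed in capitals.
hsa-miR-9-5p: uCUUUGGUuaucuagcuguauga
hsa-miR-9-3p: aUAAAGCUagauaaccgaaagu
hsa-miR-128-3p: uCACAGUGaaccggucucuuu
hsa-miR-128-1-5p: cGGGGCCGuagcacugucugaga
hsa-miR-128-2-5p: gGGGGCCGauacacuguacgaga
The 3 members shown have 3 different seeds. No other listed miRNA with a known sequence shared a miR-9 seed. The miR-128-3p seed is shared with hsa-miR-216a-3p, which had 0 counts in all 11 libraries, and hsa-miR-3681-3p, which had 1 count in all. Among miRNAs with a known sequence, miR-128-3p therefore held nearly every count with that seed. The last 2 sequences are the opposite strands of the miR-128 hairpins. They share a seed and match at 17 of 23 positions (73.9%), with the substitutions C1G, U9A, A10U, G11A, C18A and U19C from miR-128-1-5p to miR-128-2-5p, counted from 1 at the 5′ end.

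miR-128-3p is identical in both of its hairpins, so its reads cannot be assigned to either locus, whereas the 5p arms can be told apart. The hairpins are shown with both mature arms in capitals.
MIR128-1: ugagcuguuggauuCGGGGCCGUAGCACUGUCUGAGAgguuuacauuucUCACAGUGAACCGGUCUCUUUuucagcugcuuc
MIR128-2: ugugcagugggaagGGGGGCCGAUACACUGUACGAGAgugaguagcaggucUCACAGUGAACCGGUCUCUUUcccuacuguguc
On GRCh37, the build used for the alignments, MIR128-1 lies at chr2:136422967-136423048 on the plus strand, in an intron of R3HDM1. MIR128-2 lies at chr3:35785968-35786051 on the plus strand, in an intron of ARPP21. The miR-9 arms come from 3 hairpins, each within a long non-coding RNA gene and overlapping an annotated exon of it. These are MIR9-1 at chr1:156390133-156390221 (minus strand, MIR9-1HG), MIR9-2 at chr5:87962671-87962757 (minus strand, LINC00461) and MIR9-3 at chr15:89911248-89911337 (plus strand, MIR9-3HG).

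The members differed in level by orders of magnitude. In total, miR-128-3p had 133911 counts over the 11 libraries, miR-9-3p 478, miR-9-5p 317, miR-124-3p 20 and miR-124-5p 11. By mean level in controls, miR-128-3p ranked 71 of 1447 detected miRNAs in co-treatment and 75 of 1327 in pre-treatment. The ranks of miR-9-5p were 494 and 513, those of miR-9-3p 467 and 573, and those of miR-124-3p 1114 and 1199. Within single libraries, miR-128-3p had 244 to 779 counts for each count of miR-9-5p, and 197 to 891 for each count of miR-9-3p. Mature miRNAs are of nearly equal length, so these ratios needed no length scaling, but capture of different sequences by the small RNA library chemistry was not measured. Of the neuronal markers among the members, miR-128-3p was thus abundant. The miR-9 arms were at a few CPM (counts scaled to a common library total), and the counts of miR-124 were close to 0. How multiply aligned reads were counted may bear on these levels and is taken up below.

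Library totals ranged from 5343953 to 8927582 counts. Of the libraries, pre-treatment control 1 stood apart: its correlation with pre-treatment control 2 was 0.911 over 894 miRNAs (log2 CPM), against 0.968 to 0.983 for replicate pairs in the other groups. It also had the highest summed level of 5 white blood cell miRNAs (113 CPM, against 9.83 to 21.7 in the other 10 libraries) and of the epithelial list (6 of 7 with counts, the other not listed, 176 CPM against 43.6 to 54.4), and the lowest of miR-143-3p and miR-145-5p, the smooth muscle and fibroblast list (6531 CPM, against 8702 to 18786). All 5 white blood cell miRNAs had counts, as did all 4 red blood cell miRNAs, whose sum was 10.2 to 14.2 CPM in pre-treatment H2O2 libraries, 2.01 and 3.81 in pre-treatment controls and 4.67 to 9.95 in co-treatment. The liver miRNA miR-122-5p was at 537 to 788 CPM in pre-treatment H2O2 libraries and at 92.5 and 261 in their controls, with 152 to 540 in co-treatment. Muscle miRNAs (2 of 4 with counts, miR-133a-3p at 0) summed to at most 3.66 CPM, and pluripotency miRNAs (3 of 4, miR-367-3p at 0) to at most 1.24 CPM, in every library. In co-treatment, H2O2 libraries were below all controls, without overlap, in the white blood cell list (9.83 to 17.4 against 19.8 to 21.7 CPM) and the epithelial list (43.6 to 45.9 against 51.9 to 54.4 CPM). The same held for the smooth muscle and fibroblast list (8702 to 10559 against 13322 to 15456 CPM). It also held for the sum of the 24 other neuron-enriched miRNAs described below, led by miR-137 (18900 to 23621 against 38878 to 41195 CPM). These falls were in the same direction as that of miR-9-5p below. Not all lists fell: in co-treatment the red blood cell list was at 5.93 to 9.95 CPM with H2O2 against 4.67 to 7.30 in controls. Likewise miR-122-5p was at 208 to 540 against 152 to 297 CPM, both higher in range but with overlap. Of all tested miRNAs, 41.6% had groups without overlap in co-treatment. In pre-treatment the neuron-enriched sum was higher with H2O2 (33638 to 38700 CPM) than in controls (16165 and 29358 CPM). miR-137 alone went from a mean of 15723 CPM in those controls to 29023 CPM, and was not called (exact test FDR 0.150). The median log2FC of the list was −0.14 in pre-treatment, with 11 of the 20 tested below 0. In co-treatment the mean of miR-137 was 32225 CPM in controls and 15056.5 CPM with H2O2. Both sums thus mostly followed miR-137. The part of these lists in the member results was not tested. As in any bulk sample, fewer cells with a miRNA and less of it per cell cannot be told apart.

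**Figure D1:**
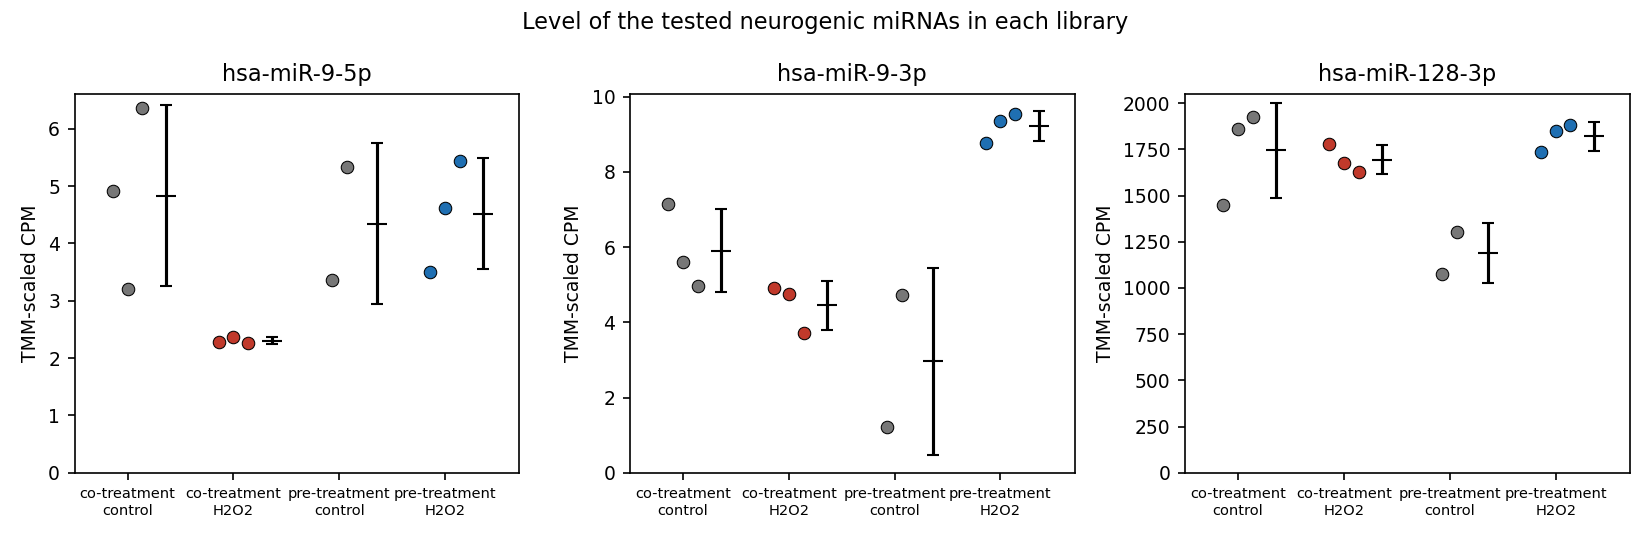
Level of miR-9-5p, miR-9-3p and miR-128-3p in each library, in CPM after scaling within each experiment, by group; each point is 1 library, and the black marks are the group mean with its SD (n = 3, or n = 2 for pre-treatment controls). The co-treatment H2O2 libraries lie at 2.26 to 2.37 CPM for miR-9-5p, under all their controls, and the pre-treatment H2O2 libraries at 8.77 to 9.55 CPM for miR-9-3p, above both theirs.

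miR-9-5p was lower in co-treatment H2O2 libraries. The controls had 31, 24 and 46 counts (replicates 1 to 3), which scale to 4.92, 3.21 and 6.36 CPM. The H2O2 libraries had 20, 14 and 17 counts, or 2.28, 2.37 and 2.26 CPM. All H2O2 libraries lay under all controls, and 41.6% of all tested miRNAs had groups without overlap in 1 direction or the other. The spread of the H2O2 libraries was small, but it rests on 14 to 20 counts per library and is not a measure of precision. The means were 4.83 ± 1.58 CPM (SD, n = 3) and 2.30 ± 0.0607 CPM (SD, n = 3), a log2FC of −1.06 (SE 0.40, 95% interval −1.91 to −0.22) or 2.09-fold lower. The FDR by edgeR's exact test was 0.0493 over the 790 miRNAs tested, just inside the call rule of FDR below 0.05 and |log2FC| above 0.6. miR-9-5p was the only 1 of 3 tested members called in co-treatment, where 26.2% of all tested miRNAs were called and 15.6% were called lower. It was also the only member with an unadjusted exact test p under 0.05 (0.0125), which 40.1% of all tested miRNAs had.

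The call did not hold under most other settings. The quasi-likelihood test of edgeR gave an FDR of 0.0651 and DESeq2 0.0956. Left-out libraries gave FDRs of 0.161 (control 1), 0.292 (control 3), 0.167 (H2O2 1), 0.129 (H2O2 2) and 0.176 (H2O2 3) by the exact test, while without control 2 the log2FC was −1.33 with an FDR of 0.00638. The direction was the same in all 19 alternatives. The size was smallest when the GC-content trend of each library was taken out. miR-9-5p has 34.8% GC, and with this correction, extended after seeing the data to miRNAs under 10 CPM, the log2FC was −0.25 (edgeR quasi-likelihood FDR 0.723). In the same fit without the correction it was −1.06 (FDR 0.0639). The same correction took the number of calls from 153 to 50 of 700 miRNAs with a known sequence.

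In pre-treatment, miR-9-5p did not differ detectably. The controls had 25 and 35 counts (3.36 and 5.34 CPM), and the H2O2 libraries 30, 34 and 41 (3.51, 4.61 and 5.44 CPM), so the groups overlapped. The log2FC was 0.06 (SE 0.41, 95% interval −0.92 to 1.03), with an edgeR exact test FDR of 0.9998. The interval stops just short of a fall as large as the one estimated in co-treatment. A difference in response between the experiments, tested in 1 quasi-likelihood fit of all 11 libraries, was 0.88 (SE 0.55) on the log2 scale with an FDR of 0.234, and it was −0.18 (FDR 0.829) with the GC trend removed.

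miR-9-3p, the opposite strand of the same hairpins, had a different pattern. In co-treatment the controls had 45, 42 and 36 counts (7.14, 5.61 and 4.98 CPM) and the H2O2 libraries 43, 28 and 28 (4.91, 4.74 and 3.71 CPM). The groups did not overlap, by a margin of less than 0.1 CPM, which was the case for 41.6% of all tested miRNAs, and they did overlap once all 11 libraries were scaled together. The log2FC was −0.40 (SE 0.35, 95% interval −1.13 to 0.33), with an edgeR exact test FDR of 0.443.

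In pre-treatment, miR-9-3p had the largest log2FC of the tested members. The controls had 9 and 31 counts (1.21 and 4.73 CPM), and the H2O2 libraries had 75, 69 and 72 (8.77, 9.35 and 9.55 CPM). The H2O2 libraries were close together and above both controls, whereas the controls were far from each other. The means were 2.97 ± 2.49 CPM (SD, n = 2) and 9.23 ± 0.404 CPM (SD, n = 3), a log2FC of 1.64 (SE 0.57, 95% interval 0.30 to 2.99) or 3.12-fold higher. The edgeR exact test FDR was 0.0638 and the quasi-likelihood FDR 0.120, so it was not called. None of the 3 tested members was called in pre-treatment, where 15.3% of all tested miRNAs were called and 46.0% had groups that did not overlap. miR-9-3p was the only 1 of the 3 with an unadjusted exact test p under 0.05 (0.0109), against 28.6% of all tested miRNAs. By quasi-likelihood test, no member was called either, and by DESeq2 1 was, miR-9-3p.

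The pre-treatment value of miR-9-3p moved with the choice of controls. Without control 1, the library that stood apart and that had the lowest miR-9-3p, the log2FC was 1.08 with an exact test FDR of 0.0157. Without control 2 it was 3.15 with an FDR of 1.14e-09. In both of these edgeR fits the lone control is assumed to vary like the H2O2 libraries. DESeq2 (log2FC 1.66, FDR 0.0387), library size in place of TMM (1.74, FDR 0.0328), a filter on CPM in all libraries (1.53, FDR 0.0382) and 1 edgeR fit of all 11 libraries (1.57, FDR 0.0231) also passed the threshold. The other 12 of 18 alternatives did not pass. Among them the edgeR FDR was 0.223, 0.236 and 0.244 without each H2O2 library, 0.202 with the replicate block and 0.0934 without a filter. DESeq2 size factors and filterByExpr came close to the threshold (edgeR FDR 0.0519 and 0.0515). With the GC trend removed, the log2FC was 1.16 (edgeR quasi-likelihood FDR 0.158), against 1.64 (FDR 0.124) in the same fit without the correction.

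The difference between the responses of miR-9-3p in the experiments passed its test, but no longer did so with GC content taken into account. It was 1.84 on the log2 scale (SE 0.57, pre-treatment minus co-treatment), with a quasi-likelihood FDR of 0.0259 in edgeR. This test called 32.1% of 764 miRNAs. The FDR was above 0.05 without co-treatment control 1 (0.0515), co-treatment H2O2 3 (0.0521), pre-treatment control 1 (0.0663, with a difference of 1.29), pre-treatment H2O2 2 (0.0550) or pre-treatment H2O2 3 (0.0571). With the GC trend removed in the same fit, chosen after seeing the data, the difference was 0.67 (SE 0.51, FDR 0.399), against 1.91 (FDR 0.0309) over the same 675 miRNAs without the correction. Anything that differed between the experiments in culture or sequencing cannot be told apart from the regimen.

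**Figure D2:**
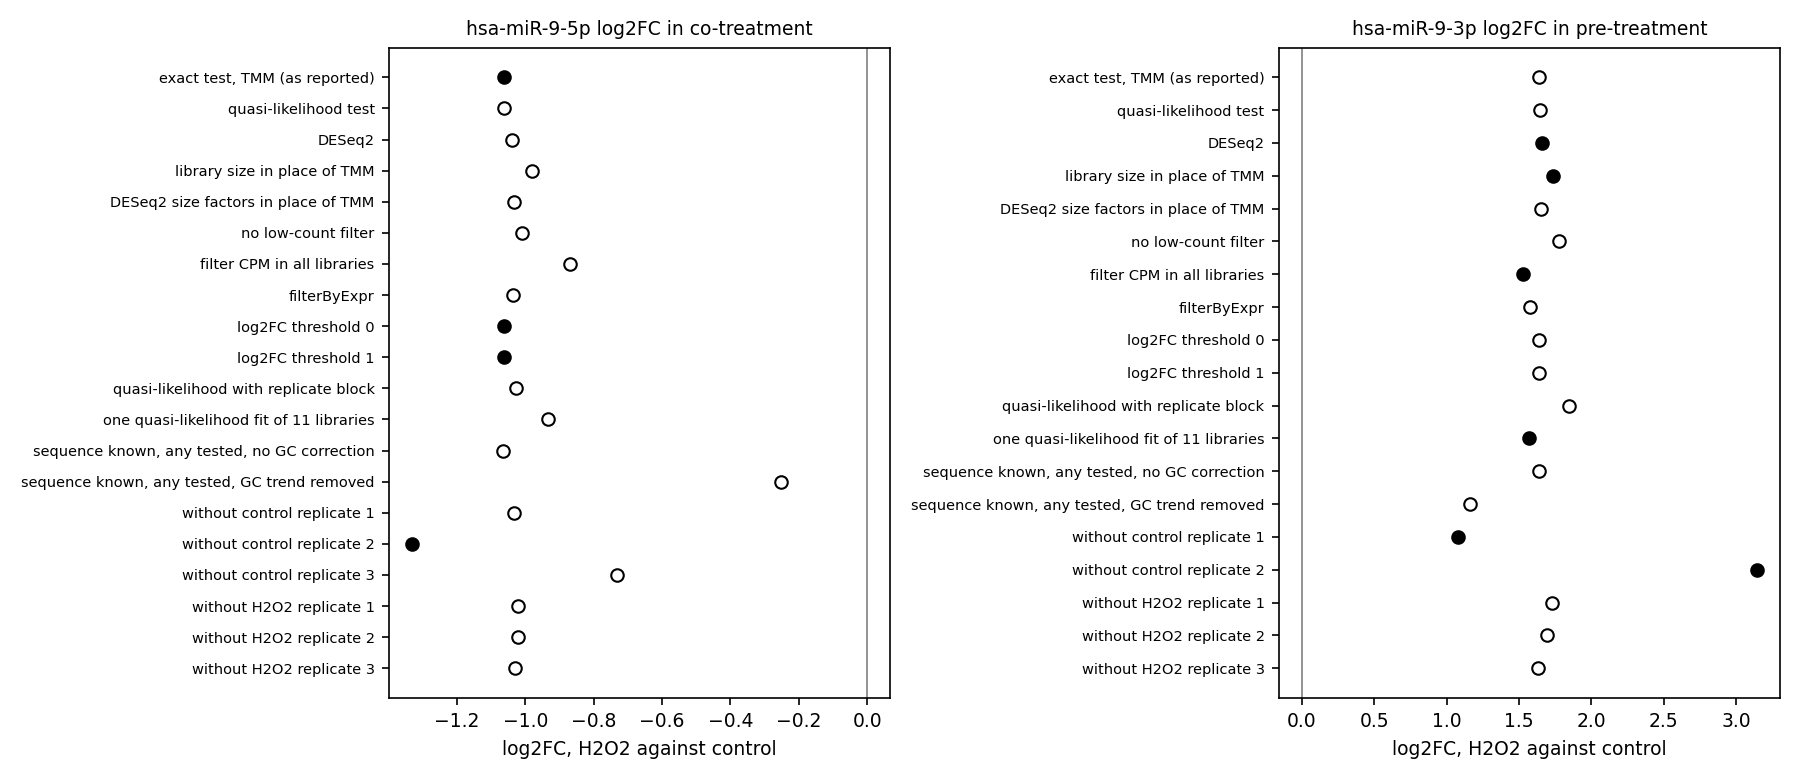
log2FC of miR-9-5p in co-treatment (left) and miR-9-3p in pre-treatment (right) under each setting tried; filled points passed FDR 0.05 and the log2FC threshold of the setting. miR-9-5p stayed below 0 in every setting and passed in few, while miR-9-3p stayed between 1.08 and 3.15 and passed in 6 alternatives.

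Each miR-9 hairpin gives both arms, and the share of 1 arm in the counts of both within a library does not depend on library scaling. miR-9-3p made up 59.2%, 63.6% and 43.9% of miR-9 counts in co-treatment controls and 68.3%, 66.7% and 62.2% in H2O2 libraries, with overlap between the groups. The means were 55.6 ± 10.4% (SD, n = 3) and 65.7 ± 3.13% (SD, n = 3), and the exact two-sided permutation p was 0.2. In pre-treatment the share was 26.5% (Wilson 95% interval 14.6 to 43.1%) and 47.0% (35.4 to 58.8%) in controls, against 71.4% (62.2 to 79.2%), 67.0% (57.4 to 75.3%) and 63.7% (54.5 to 72.0%) in H2O2 libraries. All H2O2 libraries were above both controls, by 30.7 percentage points between the means. The exact permutation p was 0.1, the smallest that 3 against 2 libraries allow (and also 3 against 3), and 0.2 after Benjamini-Hochberg adjustment over the 4 arm shares compared. These shares rest on 34 to 113 counts of both arms per library. The intervals cover counting error only, since reads are not taken as independent molecules.

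miR-128-3p was measured on far more counts, and the SE of its log2FC was the smallest of the 3 tested members in both experiments. In co-treatment the controls had 9145, 13916 and 13944 counts (1451, 1859 and 1928 CPM) and the H2O2 libraries 15575, 9889 and 12246 (1778, 1675 and 1625 CPM). Each H2O2 library lay within the range of the controls. The log2FC was −0.04 (SE 0.24, 95% interval −0.55 to 0.46), with an edgeR exact test FDR of 0.925. The interval excludes a rise or a fall of the size that miR-9-5p had, although a smaller one is within it.

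In pre-treatment miR-128-3p was higher in every H2O2 library than in either control, and 46.0% of all tested miRNAs had groups without overlap. The controls had 8016 and 8556 counts (1076 and 1305 CPM), and the H2O2 libraries 14814, 13642 and 14168 (1733, 1849 and 1879 CPM). The log2FC was 0.61 (SE 0.25, 95% interval 0.03 to 1.19) or 1.53-fold, with an exact test FDR of 0.227 and a quasi-likelihood FDR of 0.157 in edgeR, so the difference was not called. Of the alternatives it was called only without control 2 (log2FC 0.99, edgeR FDR 4.86e-05), where the control that stood apart was the only one left. Without control 1 the exact test FDR was 0.0221 in edgeR, with a log2FC of 0.599, just short of the 0.6 needed for a call. Between the experiments, the responses differed by 0.38 (SE 0.29, edgeR FDR 0.332) on the log2 scale.

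The passenger strand miR-128-1-5p, which is not a member, moved apart from miR-128-3p. In co-treatment it had 54, 96 and 60 counts in controls and 184, 139 and 183 in H2O2 libraries, or 9.90 ± 2.54 CPM (SD, n = 3) against 22.9 ± 1.72 CPM (SD, n = 3). Every H2O2 library was above every control, and 41.6% of all tested miRNAs had groups without overlap in either direction. The log2FC was 1.21 (SE 0.29), with an edgeR exact test FDR of 0.00157. Of all tested miRNAs, 10.6% were called higher in co-treatment. It is also GC-rich, at 65.2%, and with the GC trend removed the log2FC was 0.68 (edgeR FDR 0.104) among miRNAs of at least 10 CPM. The same quasi-likelihood fit without the correction gave 1.46 (FDR 0.00496). Its share of the miR-128 counts was 0.587%, 0.685% and 0.428% in controls and 1.17%, 1.39% and 1.47% in H2O2 libraries, without overlap and with an exact permutation p of 0.1 (0.2 adjusted over 4). miR-128-2-5p had 0 counts in all 11 libraries, which allows up to 0.336 CPM in the deepest library and 0.561 CPM in the shallowest (3 counts).

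In pre-treatment miR-128-1-5p had 277 and 114 counts in controls and 233, 213 and 216 in H2O2 libraries, or 37.2 and 17.4 CPM against 27.3, 28.9 and 28.7 CPM. The H2O2 libraries lay between the controls. The log2FC was 0.05 (SE 0.39, edgeR exact test FDR 0.994), and it was 0.82 (FDR 0.0153) without control 1. The share was 3.34% and 1.31% in controls and 1.55%, 1.54% and 1.5% in H2O2 libraries (exact permutation p = 0.4). With the GC trend removed, the pre-treatment log2FC was 0.51 (edgeR FDR 0.157) among miRNAs of at least 10 CPM and 0.75 (FDR 0.150) among all tested. The same quasi-likelihood fits without the correction gave −0.27 (FDR 0.690) and 0.04 (FDR 0.955). Its difference in response between the experiments was −1.52 (SE 0.50, edgeR FDR 0.0316), but 0.06 (FDR 0.929) with the GC trend removed, and −0.60 (FDR 0.293) without pre-treatment control 1. Of the 11 fits with a library left out, 10 had an FDR above 0.05, the exception being that without pre-treatment control 2 (−1.73, FDR 0.00135).

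**Figure D3:**
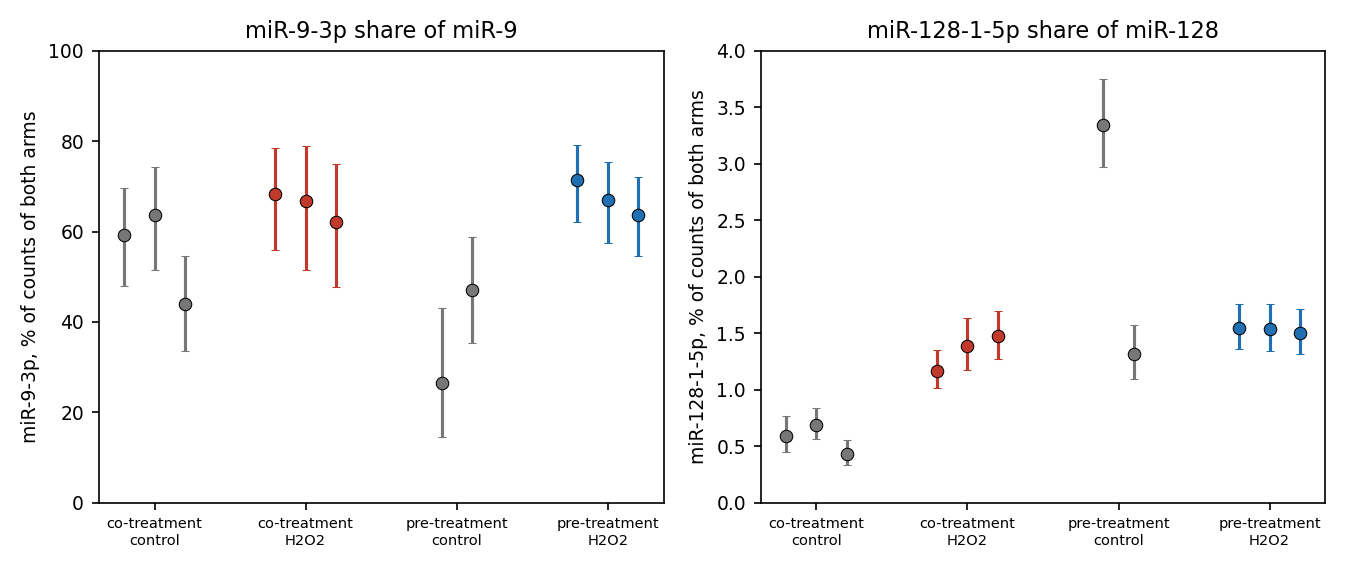
Share of miR-9-3p in the counts of both miR-9 arms (left) and of miR-128-1-5p in the counts of both miR-128 arms (right), in percent, for each library with its Wilson 95% interval. Both shares are without overlap in 1 experiment each, miR-9-3p in pre-treatment and miR-128-1-5p in co-treatment, and pre-treatment control 1 lies at an extreme of each plot.

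Both miR-124 arms were at or near the detection limit in these counts and were too low to test. miR-124-3p, the strand that acts in neurons, had 2, 2 and 0 counts in co-treatment controls and 0 in all 3 H2O2 libraries. In pre-treatment it had 2 and 0 counts in controls and 5, 7 and 2 in H2O2 libraries. The pre-treatment H2O2 libraries held the 2 highest counts of the 11 libraries, both over the limit of 3 counts. The summed counts of 14 and 2 gave a ratio of 4.18, with an exact 95% counting interval of 0.96 to 37.9, and over libraries the exact permutation p was 0.3 in pre-treatment and 0.4 in co-treatment.

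miR-124-5p, the passenger strand, had 0 counts in all co-treatment controls and 2, 4 and 3 in H2O2 libraries. It had 1 count in each pre-treatment control and 0 in each H2O2 library. The groups did not overlap in either experiment and lay in opposite order, with an exact permutation p of 0.1 in each, the smallest the design allows. Among tested miRNAs, 41.6% in co-treatment and 46.0% in pre-treatment had groups without overlap. In pre-treatment a single count per control makes the separation, so no direction is read from it. A single library exceeded 3 counts, so no fold is given. No library had more than 7 counts of either arm, against at least 8016 of miR-128-3p.

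**Figure D4:**
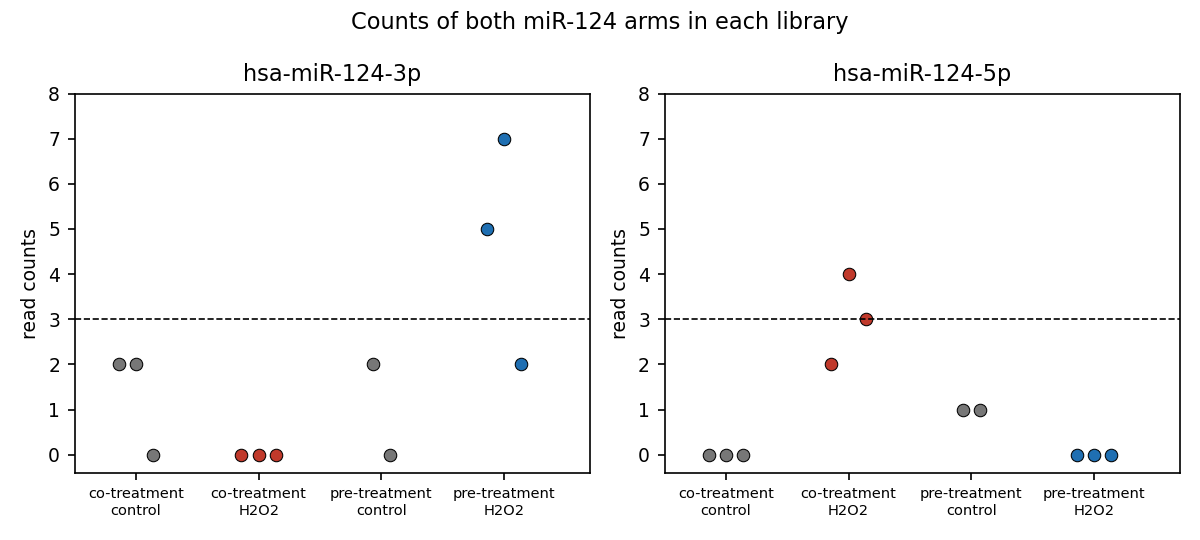
Read counts of miR-124-3p (left) and miR-124-5p (right) in each library by group; the dashed line marks 3 counts, taken as the detection limit. Only 3 points lie above the line, at 5 and 7 counts of miR-124-3p and 4 counts of miR-124-5p.

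The miR-9 arms have the same mature sequence in all 3 hairpins, and how reads that align equally well to several places were counted is not given in the sources used here. Among miRNAs of at least 10 CPM, the 18 with several hairpins had a median of 135 CPM and the 336 with a single one 99.9 CPM. That filter left out both miR-9 arms (means of 3.97 CPM for 5p and 5.88 CPM for 3p). It would also leave out any miRNA lowered below it by lost reads, so these medians cannot show whether reads were lost. miR-128-3p, which comes from 2 hairpins, was in the first group. No sequence was matched for the miR-124 arms, so their hairpins were not counted here. The handling may also bear on their low counts, which need not mean that miR-124 was nearly absent from the cells. The effect of this handling on the members was not tested.

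With all 11 libraries scaled together, the order of the 4 groups differed between members. For miR-9-5p, co-treatment H2O2 (mean 2.31 CPM) was below the range of every other group, and the other group means of 4.43 to 4.77 CPM did not differ beyond their spread. For miR-9-3p, pre-treatment H2O2 (9.39 CPM) was above every other group, followed by co-treatment control (5.37), co-treatment H2O2 (4.46) and pre-treatment control (3.12), whose neighbours overlapped in range. For miR-128-3p, pre-treatment H2O2 (1853 CPM) and co-treatment H2O2 (1697) overlapped, as did co-treatment H2O2 and co-treatment control (1586), and the latter and pre-treatment control (1328). These levels set the experiments side by side and are a description.

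The members did not vary together in full. After centring each experiment on its mean, log2 CPM over the 11 libraries had a Pearson r of 0.80 between miR-9-3p and miR-128-3p, 0.35 between the miR-9 arms and 0.19 between miR-9-5p and miR-128-3p. Of 402 other miRNAs of at least 10 CPM, the most like miR-9-5p were miR-301a-5p (r = 0.945), miR-17-5p (0.923) and miR-106b-5p (0.915). The most like miR-9-3p were miR-548k (0.950), miR-494-3p (0.934) and miR-7-1-3p (0.904). Of 401 others, those most like miR-128-3p were miR-95-3p (0.957), miR-3065-5p (0.951) and miR-3065-3p (0.935). The points share library scaling, depth and group, so these coefficients describe likeness only.

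Other miRNAs known as neuron-enriched gave a context for the members. Of a list of 24, 20 were tested in each experiment, and the other 4 (miR-128-2-5p, miR-135a-5p, miR-153-3p and miR-433-3p) had at most 9 counts in any library. In co-treatment 6 of the 20 (30%, against 26.2% of all tested miRNAs) were called by the exact test, 1 higher and 5 lower (10.6% and 15.6% of all). The median log2FC of the list was −0.24, against −0.04 over all tested miRNAs. The 1 called higher was miR-128-1-5p. The 5 called lower were miR-219a-5p (log2FC −1.56, an oligodendrocyte and neuron miRNA), miR-338-3p (−1.29), miR-137 (−1.10, a regulator of neuronal maturation), miR-218-5p (−0.99, a motor neuron miRNA) and miR-139-5p (−0.89). miR-137 was by far the most abundant of the list, with 33224, 32291 and 31161 CPM in controls and 17556, 13995 and 13618 CPM in H2O2 libraries, and its call held without any 1 library. Groups overlapped for miR-219a-5p and miR-139-5p. The calls of miR-219a-5p, miR-218-5p and miR-139-5p were lost without control 1 (exact test FDR 0.0615, 0.0784 and 0.203 in edgeR), without control 3 (0.129, 0.116 and 0.276) and without H2O2 3 (0.0635, 0.0584 and 0.202), leaving 3 list members called in each case. The calls of miR-218-5p without H2O2 2 (FDR 0.0656) and miR-139-5p without H2O2 1 (0.222) were lost as well. In the single edgeR fit of 11 libraries the FDRs of miR-219a-5p, miR-218-5p and miR-139-5p were 0.0993, 0.0996 and 0.193. With the GC trend removed among miRNAs of at least 10 CPM, none of the 4 called lower with a matched sequence passed: miR-219a-5p was at −0.85 (edgeR FDR 0.278), miR-338-3p at −0.69 (0.0932), miR-218-5p at −0.27 (0.432) and miR-139-5p at −1.04 (0.104). In the same fit without the correction, miR-139-5p had not passed either (−0.65, edgeR FDR 0.150). There miR-219a-5p (−1.33, FDR 0.0440), miR-338-3p (−1.04, FDR 0.0100) and miR-218-5p (−0.74, FDR 0.0455) had passed. miR-137 was not matched to a sequence by its name and was in neither fit.

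In pre-treatment 3 of the 20 list members (15%, against 15.3% of all) were called, 1 higher and 2 lower (5.41% and 9.91% of all), and the median log2FC was −0.14, against −0.19 over all tested. miR-138-5p, a dendritic miRNA of neurons, was higher (log2FC 1.03), with 327 and 359 CPM in controls and 786, 651 and 664 CPM in H2O2 libraries. miR-346 was lower (−1.53), with 8.46 and 16.2 CPM against 3.16, 4.07 and 5.57 CPM. Without control 2 its log2FC was −0.76 and the call was lost (edgeR exact test FDR 0.0996). miR-383-5p was also called lower, at 11 and 14 counts in controls and 2 in each H2O2 library. From counts summed over libraries, the ratio of control to H2O2 was 6.98 with an exact counting interval of 2.80 to 20.8. That interval covers counting error only and leaves out the spread between libraries. By edgeR's quasi-likelihood test the FDR of miR-383-5p was 0.0638, and 0.363 with the replicate number as a block. The quasi-likelihood test called none of the list (1.96% of all tested miRNAs). The exact test called 9 without control 1, 8 without control 2 and none without any 1 of the H2O2 libraries. The list was chosen with earlier results of these data known.

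**Figure D5:**
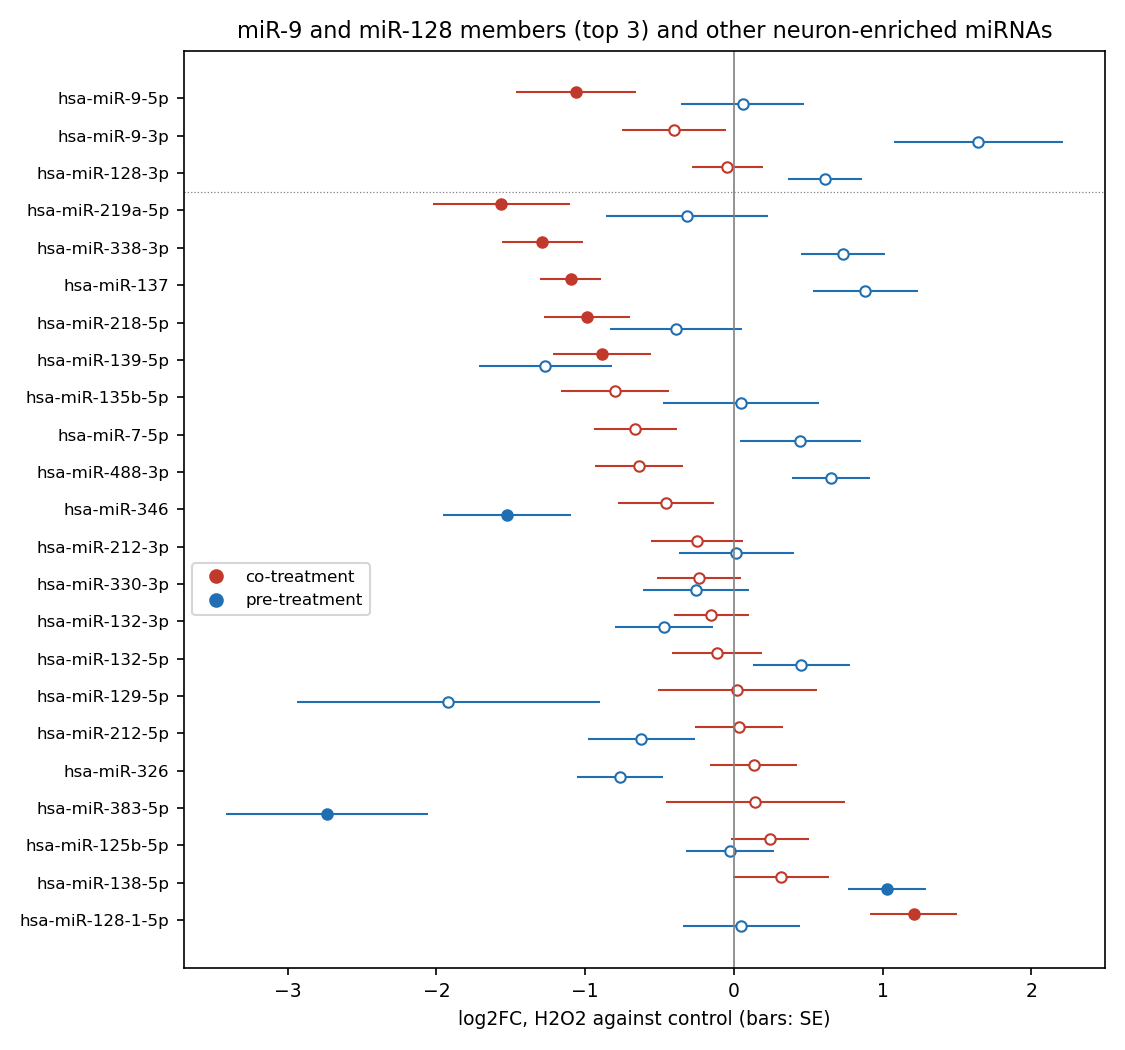
log2FC of H2O2 against control with its SE for the 3 tested members (top) and the other neuron-enriched miRNAs tested in both experiments, in co-treatment (red) and pre-treatment (blue); filled points were called by the exact test. In co-treatment miR-9-5p lies with the 5 lowered list members, and in pre-treatment no member is filled.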

How the data were processed

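Small RNA was sequenced from 11 libraries of SH-SY5Y cells (QIAseq miRNA kit, NextSeq 500) and grouped by their labels. The authors made the deposited counts of mature miRNAs, which are not normalized, by trimming with cutadapt 2.10, aligning to hg19 with Bowtie2 2.4.1 and counting with HTSeq 0.7.2, with FastQC 0.11.8 for quality, per the submitters' processing notes and the paper's methods. Use of molecular identifiers and treatment of multiply aligned reads are not given in the sources used here. The authors' deposited comparison tables hold log2 fold changes, CPM averages, p-values and FDR from edgeR 3.6.1, and were not used.

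H2O2 libraries were tested against controls, separately per experiment, by edgeR's exact test (version 4.0.16, R 4.3.3) with TMM scaling. A miRNA was tested if its CPM exceeded 0.936 in 3 or more co-treatment libraries or 0.721 in 2 or more pre-treatment libraries (what 5 counts are worth in the smallest library), which left 790 and 868. FDR is the Benjamini-Hochberg adjusted p, and calls needed FDR below 0.05 and |log2FC| above 0.6. SE and intervals are from the quasi-likelihood fit, and CPM is TMM-scaled within an experiment. The difference in response was an interaction over 11 libraries (764 miRNAs). DESeq2 1.42.0, other scalings and filters, a GC-trend offset (lowess span 0.5) and left-out libraries were alternatives. Arm shares were compared by exact two-sided permutation. At most 3 counts were taken as the detection limit. Depth was 5343953 to 8927582 counts. Scripts were tested on simulated data.

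Mature sequences are from RefSeq (GRCh38.p14), matched for 2262 of 2576 miRNAs (87.8%). Hairpin positions come from exact matches to GRCh37. The members and lists were chosen with earlier results of these data known. Named beside the members were their partner arms, seed sharers, called members of the neuron list (at most 6 by |log2FC| per experiment) and the 3 miRNAs most correlated with each tested member.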

Additional observations from a re-analysis of the deposited data

Results flagged for a closer look

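Both values below are listed because the responses to H2O2 in the experiments differed by a test of the difference itself (edgeR quasi-likelihood interaction over 11 libraries), which 32.1% of 764 miRNAs passed. Neither passed with the GC trend of each library removed, where 72 of 675 miRNAs did. For miR-9-3p the log2 difference, pre-treatment minus co-treatment, was 1.84 (FDR 0.0259). It was 0.67 (FDR 0.399) with the GC trend removed, and it ranged from 1.29 to 3.20 over left-out libraries, with an FDR above 0.05 in 5 of those 11. For miR-128-1-5p the difference was −1.52 (SE 0.50, FDR 0.0316), with a log2FC of 1.36 in co-treatment and −0.15 in pre-treatment in that joint fit. With the GC trend removed these were 0.63 and 0.69, a difference of 0.06 (FDR 0.929). The pre-treatment control that stood apart had the lowest miR-9-3p and the highest miR-128-1-5p of the 11 libraries (1.21 and 37.2 CPM). Without it the difference for miR-9-3p was 1.29 (edgeR FDR 0.0663), and that for miR-128-1-5p −0.60 (FDR 0.293). Groups of 2 or 3 libraries were too small for a check of single libraries far from their group.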

How the results depend on the processing

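In co-treatment the call of miR-9-5p was lost, and the number of members called went from 1 to 0, by quasi-likelihood test (log2FC −1.06), DESeq2 (−1.04), library size scaling (−0.98), DESeq2 size factors (−1.03), no filter (−1.01), CPM in all libraries (−0.87), filterByExpr (−1.04), 1 fit of 11 libraries (−0.93), and known sequences without (−1.06) and with the GC trend removed (−0.25). Left-out libraries gave −1.33 to −0.73 and 0 to 1 members called. miR-9-3p changed sign only with the GC trend removed (0.51). miR-128-3p, near 0, turned positive by library size (0.057), no filter (0.013), CPM in all libraries (0.15), 1 fit of 11 libraries (0.10), known sequences at 10 CPM or more without (0.21) and with GC removal (0.083) and GC removal over all tested (0.047), and ranged from −0.12 to 0.13 over left-out libraries. The cause of these changes was not tested.

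In pre-treatment miR-9-5p turned negative with CPM in all libraries (−0.10), filterByExpr (−0.032), 1 fit of 11 libraries (−0.056) and GC removal (−0.44), and ranged from −0.13 to 0.65 over left-out libraries. miR-9-3p passed the threshold by DESeq2 (1.66), library size (1.74), CPM in all libraries (1.53) and 1 fit of 11 libraries (1.57), each taking the members called from 0 to 1. Over left-out libraries miR-9-3p ranged from 1.08 to 3.15, miR-128-3p from 0.60 to 0.99 and the members called from 0 to 2. miR-128-1-5p turned negative by DESeq2 (−0.0065), DESeq2 size factors (−0.0065), CPM in all libraries (−0.18), filterByExpr (−0.0865), 1 fit of 11 libraries (−0.15) and known sequences at 10 CPM or more (−0.27), with −0.16 to 0.82 over left-out libraries. The neuron-enriched list had 3 to 6 calls in co-treatment and 0 to 9 in pre-treatment over left-out libraries, and 0 in pre-treatment by quasi-likelihood test. The difference in response ranged over left-out libraries from 0.75 to 1.5 for miR-9-5p (FDR 0.0495 without co-treatment control 2), 1.29 to 3.20 for miR-9-3p and 0.42 to 0.75 for miR-128-3p. With the GC trend removed, a fit added after seeing the data, it was −0.18 for miR-9-5p, 0.67 for miR-9-3p (no longer past the threshold) and 0.061 for miR-128-1-5p. The difference in arm share ranged from 4.29 to 14.2 points (co-treatment) and 20.4 to 40.9 (pre-treatment) for miR-9-3p, and from 0.706 to 0.862 and −1.81 to 0.214 for miR-128-1-5p.

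The replicate numbers were not taken to pair the libraries. Deviations of same-numbered libraries correlated at 0.04, −0.14 and −0.12 in co-treatment and 0.18 and −0.06 in pre-treatment, and not every library correlated best with its own number. Deviations within such small groups depend on each other, and those of 2 controls mirror each other. This check therefore cannot show whether the libraries were paired. With the replicate number as a block, miR-9-5p was at −1.03 (FDR 0.131 by edgeR, with 0 members called) in co-treatment, and it was at −0.076 in pre-treatment, and the difference for miR-9-3p was 1.97 (FDR 0.0785). By quasi-likelihood test, the block took the calls over all miRNAs from 181 to 111 (co-treatment), 17 to 15 (pre-treatment) and 245 to 80 (difference in response).

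Over all miRNAs, the exact test's 207 calls in co-treatment became 107 to 274 over left-out libraries, and its 133 in pre-treatment 61 with no filter and 9 to 508 over left-out libraries. The quasi-likelihood test called 181 and 17. By that test, 1 fit of 11 libraries called 90 and 161. GC removal took its calls from 126 to 24 and from 52 to 41 (co-treatment and pre-treatment, 10 CPM or more) and from 153 to 50 and 12 to 2 (all tested with known sequence). The 245 of the difference in response became 183 to 405 over left-out libraries, and 211 to 72 by GC removal. Depth limits miR-124 most, at no more than 7 counts in a library. A left-out control in pre-treatment leaves 1, which is then assumed to vary like the H2O2 libraries.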
